A study of Mus musculus with 11 samples.

Results

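Notch signalling was examined through 10 genes in cultured mouse bone mesenchymal stem cells (MSCs, stromal cells that can form bone, fat and cartilage). They were the receptors Notch1, Notch2, Notch3 and Notch4, the ligands Jag1, Jag2 and Dll1, and the target genes Hes1, Hey1 and Heyl. The genes were chosen by name, as receptors, ligands and targets of the pathway, with earlier results of these data known. All 10 were among the 28222 genes of the deposited count table. The series set MSCs of old mice beside those of young mice to describe changes with age.

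Notch receptors are cell surface proteins that are activated by ligands of the Jagged and Delta families on a neighbouring cell. After ligand binding the receptor is cut by ADAM proteases and then by the gamma-secretase complex, and the released intracellular domain joins the DNA-binding protein RBPJ and the co-activators of the Mastermind family on target genes. The targets Hes1, Hey1 and Heyl encode repressors of transcription. In bone, Notch signalling is known to hold back the differentiation of MSCs into osteoblasts, and ligands on stromal cells signal to neighbouring blood cells.

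Polyadenylated RNA was sequenced in 11 libraries, each a culture of MSCs labelled with an age and a batch. There were 4 young libraries in batch A (A young), 2 young and 2 old libraries in batch B (B young and B old) and 3 old libraries in batch C (C old). Young mice were 3 to 5 months old and old mice 18 to 22 months, and all cells of both ages were grown at 2% oxygen. The labels did not give genotype, strain or sex. The methods of the paper, which are written for an oxygen comparison, name wild-type male C57BL/6N mice and MSCs sorted from hind limb bones as CD45-, TER-119-, Sca-1+ and CD140a+ cells. It was not stated whether the libraries came from separate animals, so p-values measure the spread between these libraries, which may be technical. The labels did not say what a batch was, and age and batch could be separated only within batch B.

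Total counts per library ranged from 11969336 to 20315934. All 12 MSC markers, among them Pdgfra (CD140a) and Ly6a (Sca-1), were detected in all 4 groups, with a summed level of 3975 to 6389 CPM (counts scaled by library size). Endothelial markers were near 0, with summed levels of 5.40 to 13.9 CPM over 11 of the 12 listed genes, and Pecam1 was at most at 0.589 CPM in any library. Haematopoietic markers were present in every library although the sort was for CD45- cells. The 20 haematopoietic genes summed to 974 to 2186 CPM in A young, 544 to 1149 in B young, 1167 to 1651 in B old and 190 to 225 in C old. Mural markers, a list that holds Notch3, summed to 2455 to 4722 CPM. Most of this sum was Acta2, at 2155 to 4243 CPM, followed by Cnn1 at 134 to 341 CPM and Cspg4 at 69.7 to 199 CPM. Rgs5, Des, Abcc9 and Kcnj8 were at most at 7.01, 4.11, 1.34 and 0.267 CPM in any library. Osteoblast markers summed to 53032 to 62456 CPM in A young and 19296 to 43344 CPM in the other groups. Most of this sum was Col1a1, at 52362 to 61727 CPM in A young and 18430 to 19451 CPM in C old. Runx2, Sp7, Alpl, Ibsp and Bglap were instead higher in C old than in A young without overlap, and Spp1 and Dmp1 overlapped. Ibsp, for one, was at 83.0 to 138 CPM in C old and at 12.6 to 24.2 CPM in A young. Ptprc, which encodes CD45, was at 7.49 to 22.2 CPM in batches A and B and at 3.47 to 5.11 CPM in C old. A level is given here as CPM with library totals scaled by TMM (trimmed mean of M-values), and 3 counts, taken as the smallest detectable amount, correspond to 0.156 to 0.253 CPM. These are bulk samples, so that fewer cells of a type and less RNA per cell cannot be told apart.

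The promoters of the abundant receptors and of the abundant ligand are shown because these genes were called between batches. Each runs from 250 bases before to 50 bases after the transcription start of RefSeq (GRCm38.p6), 5′ to 3′ on the strand of the gene. An entry was matched for 7 of the 10 members, and Hes1, Hey1 and Heyl were not matched. Capitals mark matches on either strand to CACGCG, the class C site of Hes proteins, or to CACNAG, the N-box that Hes proteins also recognise. Notch1 (chr2:26503773-26504072, minus strand) and Notch2 (chr3:98013288-98013587, plus strand) are followed by Notch3 (chr17:32166841-32167140, minus strand) and Jag1 (chr2:137116471-137116770, minus strand).
Notch1: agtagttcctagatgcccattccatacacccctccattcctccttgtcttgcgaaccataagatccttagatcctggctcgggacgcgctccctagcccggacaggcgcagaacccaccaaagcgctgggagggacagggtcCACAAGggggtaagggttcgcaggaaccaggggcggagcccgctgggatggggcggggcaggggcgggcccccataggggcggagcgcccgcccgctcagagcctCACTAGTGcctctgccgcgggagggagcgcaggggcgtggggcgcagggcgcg
Notch2: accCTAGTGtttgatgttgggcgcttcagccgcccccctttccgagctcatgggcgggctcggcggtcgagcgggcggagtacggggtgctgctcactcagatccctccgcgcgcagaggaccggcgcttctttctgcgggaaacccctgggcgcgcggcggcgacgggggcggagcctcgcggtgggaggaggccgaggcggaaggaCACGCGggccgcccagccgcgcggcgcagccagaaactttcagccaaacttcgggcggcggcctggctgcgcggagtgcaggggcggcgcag
Notch3: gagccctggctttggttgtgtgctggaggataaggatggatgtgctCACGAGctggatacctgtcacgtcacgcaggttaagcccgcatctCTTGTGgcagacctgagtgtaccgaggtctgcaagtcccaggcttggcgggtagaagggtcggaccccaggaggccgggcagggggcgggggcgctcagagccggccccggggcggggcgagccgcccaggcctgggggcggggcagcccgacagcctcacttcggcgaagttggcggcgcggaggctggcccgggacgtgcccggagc
Jag1: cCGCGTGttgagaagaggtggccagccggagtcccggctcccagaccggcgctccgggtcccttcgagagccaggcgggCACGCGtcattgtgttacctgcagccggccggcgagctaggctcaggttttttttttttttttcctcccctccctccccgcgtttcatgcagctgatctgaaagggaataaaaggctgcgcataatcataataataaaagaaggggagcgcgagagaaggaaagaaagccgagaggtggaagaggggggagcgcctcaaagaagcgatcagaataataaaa

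CACGCG stood 42 bases before the start of Notch2 and 171 and 249 bases before that of Jag1, and Jag2 and Dll1 also held it. It occurred in 9.27% of all 32851 promoter entries of the same length. CACNAG was found 204 and 159 bases before the start of Notch3, 247 bases before that of Notch2, and in Notch1 at 108 bases and in a pair of overlapping matches that lie across the start. CACNAG was also held by Dll1 and occurred in 42.5% of all entries. TGGGAA, the core letters bound by RBPJ, and GTGGGAA, which overlaps it, were absent from these windows in all 7 members and occurred in 25.6% and 6.38% of all entries. The G+C content of the printed promoters was 68.3% for Notch1, 73.0% for Notch2, 70.0% for Notch3 and 55.7% for Jag1. The start of Notch1 lay inside the gene as annotated in GENCODE M21 (GRCm38), which extends from 26457903 to 26516663 on chromosome 2.

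Among the receptors, Notch2 was the most abundant in every library. It was at 187, 203, 225 and 190.3 CPM in A young, at 129 and 89.8 CPM in B young, at 88.7 and 93.1 CPM in B old and at 142, 165 and 163 CPM in C old. All libraries of batch B were below all libraries of batches A and C, and the ranges of A young and C old did not overlap.

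Notch3, a receptor best known from smooth muscle cells and pericytes, was at 29.3, 51.2, 59.6 and 48.9 CPM in A young. It was at 32.6 and 16.1 CPM in B young, at 23.2 and 32.2 CPM in B old and at 42.0, 38.8 and 45.5 CPM in C old. A young replicate 1 lay below B young replicate 1, so that the young groups overlapped. Notch1 was at 19.3, 23.1, 26.9 and 24.0 CPM in A young and at 16.4 and 10.1 CPM in B young. It was at 8.56 and 12.1 CPM in B old and highest in C old, at 32.1, 33.7 and 37.1 CPM. The B young and B old ranges overlapped for Notch1, and the C old libraries were above all others.

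Notch4, a receptor mostly of endothelial cells, was detected with only 8 to 40 counts per library. Its level was 1.99, 0.929, 0.991 and 0.650 CPM in A young, 0.938 and 0.817 CPM in B young, 2.69 and 1.00 CPM in B old and 1.47, 0.982 and 1.52 CPM in C old. The highest value, in B old replicate 1, rests on 40 counts, and A young and C old overlapped.

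Jag1, a ligand of the Jagged family, was by far the most abundant of the 3 ligands. It was at 72.4, 72.1, 72.0 and 64.7 CPM in A young, at 43.6 and 30.6 CPM in B young, at 30.6 and 40.4 CPM in B old and at 86.5, 83.4 and 91.4 CPM in C old. Levels in batch B were below those in batch A, and C old was above all other groups without overlap. Jag2 was at 0.508 to 1.65 CPM over the 11 libraries, with 7 to 26 counts, and Dll1 was at 0.202 to 0.991 CPM, with 3 to 12 counts. The 4 groups overlapped for Jag2, and for Dll1 all groups overlapped except B young, which was below C old.

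Of the target genes, Hes1, a bHLH repressor that is a direct target of the receptors in many tissues, had the widest range among the members detected in every library, with the highest library at 11.8 times the lowest. It was at 13.5, 12.5, 11.2 and 9.91 CPM in A young and at 7.04 and 5.65 CPM in B young. The B old libraries stood apart from each other, at 15.4 and 6.75 CPM. In C old it was at 66.6, 57.9 and 55.7 CPM, above all other libraries.

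Hey1, the related repressor with a YRPW motif, was at 2.16, 3.12, 3.88 and 3.74 CPM in A young, at 1.41 and 1.02 CPM in B young, at 3.37 and 1.80 CPM in B old and at 2.88, 3.27 and 2.54 CPM in C old. Both B young libraries were below every other library. Heyl was at 0 counts in 4 libraries and at most at 6 counts, which is 0.496 CPM. Both B old libraries were at 0, and no fold change is given for it within batch B.

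**Figure D1:**
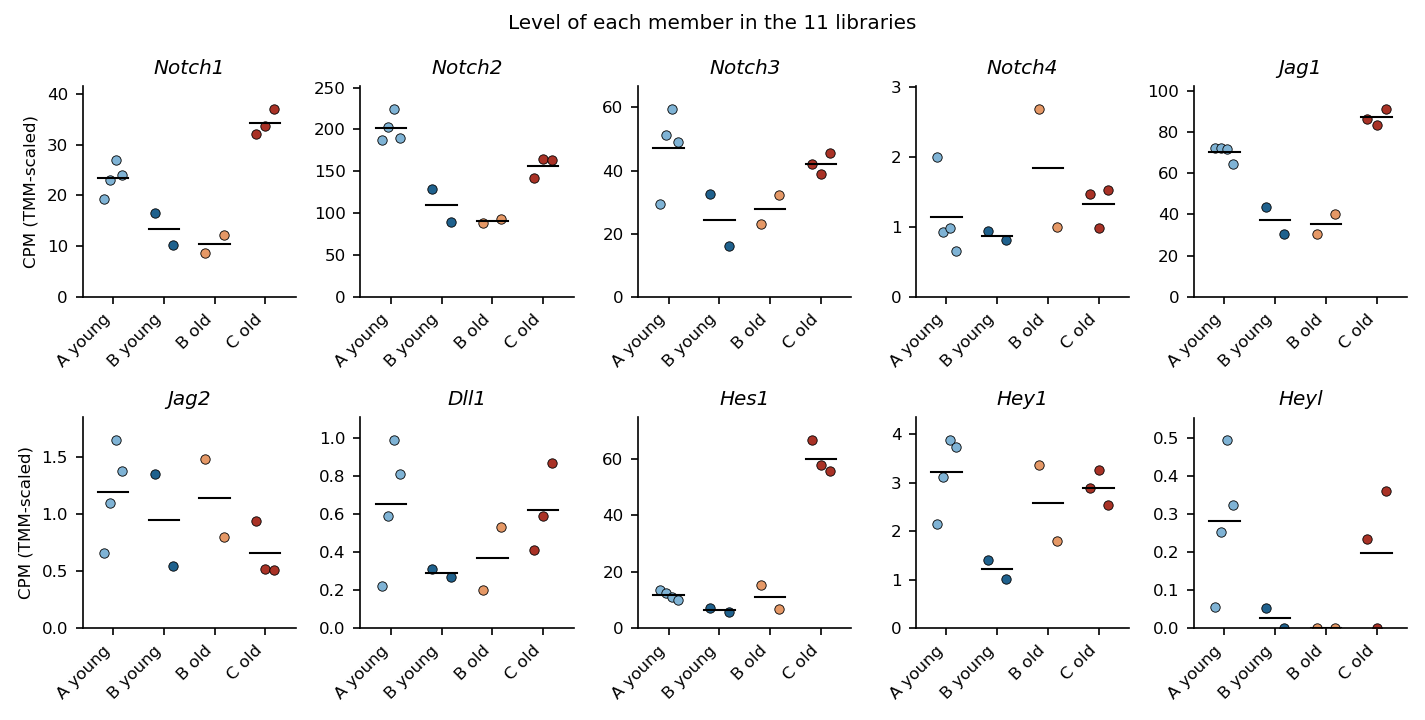
Level of each of the 10 members (CPM with TMM-scaled totals, linear axes from 0) in the 11 libraries, grouped by batch and age. Points are libraries and horizontal lines are group means. Hes1 stands at 55.7 to 66.6 CPM in C old and at 5.65 to 15.4 CPM in all other libraries, and Notch2 and Jag1 are lowest in batch B.

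Levels were compared between genes per kilobase of the longest annotated transcript. In A young, Notch2 led with 19.2 ± 1.64 CPM per kb (SD, n = 4), followed by Jag1 with 12.5 ± 0.670, and the ranges of these genes did not overlap with each other or with the next. Hes1 (8.03 ± 1.06) and Notch3 (5.89 ± 1.60) overlapped, Notch1 (2.46 ± 0.330) and Hey1 (1.33 ± 0.323) followed apart from their neighbours, and Jag2, Dll1, Notch4 and Heyl overlapped from one to the next at means of 0.235 down to 0.0622. The order of the 6 abundant members was the same in B young. In B old, Hes1 overlapped with Notch2 and Jag1, and Notch1 with Hey1. In C old, Hes1 was first at 40.9 ± 3.93 CPM per kb (SD, n = 3), apart from Jag1 (15.5 ± 0.720) and Notch2 (14.9 ± 1.22), which overlapped.

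**Figure D2:**
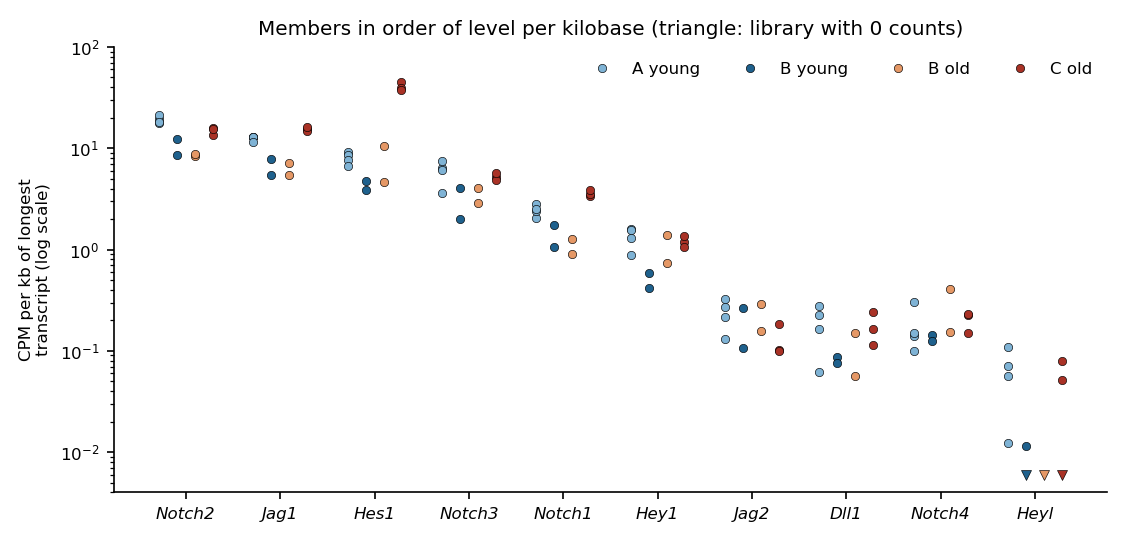
CPM per kilobase of the longest transcript (log scale) for the 10 members, ordered by their mean in A young, with 1 point per library and a triangle for a library at 0 counts. The members fall from Notch2, at 17.8 to 21.4 in A young, to Heyl, at 0.0122 to 0.109, and Hes1 is above Notch2 and Jag1 in C old.

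Expressed as a share of all receptor transcripts per length, Notch2 made up 60.5% to 74.8% in the 11 libraries, Notch3 15.3% to 28.1% and Notch4 0.367% to 3.23%. Notch1 made up 7.13% to 9.51% in batches A and B and 14.6% to 15.4% in C old, where its share did not overlap with that in any other group. Jag1 held 94.0% to 98.5% of the transcripts of the 3 ligands. Hes1 held 80.7% to 91.1% of the transcripts of the 3 targets in batches A and B and 96.7% to 97.3% in C old.

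The effect of age was taken from a fit of all 11 libraries with batch as a term, in which batch B sets the age coefficient. No member passed the threshold: 0 of the 10 members tested had an adjusted p under 0.05 by the quasi-likelihood test of edgeR, where 2.23% of the 16132 genes tested did (0.694% higher and 1.54% lower in old MSCs). At an unadjusted p under 0.05 there were 2 members, against 16.1% of all genes, and limma-trend and DESeq2 also called 0 members. The members with an unadjusted p under 0.05 were both target genes. The log2 fold change of Hes1 (old minus young) was 0.79 ± 0.28 (SE), with an adjusted p of 0.158 by edgeR, and that of Hey1 was 1.07 ± 0.38, with an adjusted p of 0.163. For 2 members, Hey1 and Notch4, both B old libraries were above both B young libraries. In these 4 libraries 39.7% of all genes did not overlap between the ages, and 19.2% did not overlap and were higher in B old. Over the alternatives the adjusted p of Hes1 ranged from 0.00152 to 0.921 and that of Hey1 from 0.0596 to 0.786. The summed haematopoietic and cycling markers did not overlap either, with cycling markers at 226 to 325 CPM in B old and below that in both B young libraries. No gene of these 2 lists was called with age. Of the 12 MSC markers 2 were called lower in old MSCs, and 1 mural and 1 osteoblast marker were called higher. Without regard to calls, the sort marker Pdgfra was at 109 to 128 CPM in B old and at 194.5 to 236 CPM in B young. Ly6a, also used in the sort, was at 569 to 648 CPM in B old and at 651 to 778 CPM in B young. The part of these marker lists in the levels of Hes1 and Hey1 was not tested. The value for Hes1 was set by the pair of B old libraries: it was 0.09 (adjusted p = 0.921) without B old replicate 1 and 1.27 (adjusted p = 0.00692) without B old replicate 2.

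For the receptors the log2 fold changes with age were -0.37 ± 0.22 for Notch1, -0.27 ± 0.15 for Notch2, 0.17 ± 0.30 for Notch3 and 1.06 ± 0.52 for Notch4. For the ligands they were -0.07 ± 0.16 for Jag1, 0.22 ± 0.53 for Jag2 and 0.32 ± 0.78 for Dll1. The adjusted p-values of these 7 genes by edgeR were between 0.333 and 0.878. The median over the 9 members with a fold change was 0.22, against 0.00 over all genes tested. In the 4 libraries of batch B fitted alone, 0 members were called as well. Without B young replicate 2, which was below B young replicate 1 for every member above 5 CPM, Notch2 was called lower in old MSCs (log2 fold change -0.51, adjusted p = 0.0216). The adjusted p of Notch2 ranged up to 0.981 over the alternatives.

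Between the batches of young MSCs the members differed in 1 direction. In B young against A young, 6 of the 9 members tested were called, all lower, where 18.1% of the 14840 genes tested were called and 8.71% were called lower. Heyl did not pass the filter on low counts. Jag1 was 1.86-fold lower (log2 fold change -0.90 ± 0.15, adjusted p = 0.00264), Notch2 1.81-fold lower (-0.86 ± 0.15, adjusted p = 0.00440) and Notch1 1.72-fold lower (-0.78 ± 0.20, adjusted p = 0.0187). Notch3 was lower as well (-0.92 ± 0.28, adjusted p = 0.0371), although its ranges overlapped. Both measured targets were lower too, Hes1 by 1.83-fold (-0.87 ± 0.19, adjusted p = 0.0110) and Hey1 by 2.55-fold (-1.35 ± 0.34, adjusted p = 0.0180). Notch4 (-0.40 ± 0.47), Jag2 (-0.24 ± 0.48) and Dll1 (-1.05 ± 0.66) were not called. The median over the 9 members tested was -0.87, against 0.01 over all genes. The groups did not overlap for 5 members, all lower in B young, where 40.9% of all genes did not overlap and 20.8% did not overlap and were lower.

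After a correction of each library for transcript length and GC content, Jag1, Notch2, Hes1 and Hey1 were still called lower in B young. Notch1 (-0.24, adjusted p = 0.274) and Notch3 (-0.37, adjusted p = 0.248) were not, and over all alternatives their adjusted p-values ranged up to 0.274 and 0.347. The transcripts of the 4 receptors are 6591 to 10500 bases long with 53.6% to 61.2% G+C, and that of Hes1 has 1468 bases. Leaving out B young replicate 2 left 2 members called (Jag1 and Notch2), and leaving out A young replicate 3 left 3 (Hes1, Jag1 and Notch2). Over all genes the calls also went down, from 2686 of 14840 to 511 of 15194 and to 1293 of 14851. In the same comparison 7 of 8 cycling markers and 8 of 20 haematopoietic markers were called lower in B young, and none of either list was called higher. Of the mural markers 2 were lower, 1 of them Notch3 itself, and 1 was higher. Of the 8 osteoblast markers 4 were lower and 1 higher. The part of these lists in the difference of the Notch genes was not tested.

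Between the batches of old MSCs the called members were again lower in batch B. In C old against B old, 5 of the 9 members tested were called, all higher in C old. Of the 15651 genes tested 64.7% were called and 32.1% were called higher, so that a call was common in this comparison. The difference was largest for Hes1, which was 5.41-fold higher (log2 fold change 2.44 ± 0.22, adjusted p = 1.38e-06). Notch1 was 3.30-fold higher (1.72 ± 0.13, adjusted p = 4.24e-07) and Jag1 2.45-fold higher (1.29 ± 0.10, adjusted p = 5.03e-07). Notch2 was 1.72-fold higher (0.78 ± 0.08, adjusted p = 3.69e-06) and Notch3 1.51-fold higher (0.60 ± 0.12, adjusted p = 0.00107). Hey1 (0.16 ± 0.29), Dll1 (0.71 ± 0.58), Jag2 (-0.77 ± 0.45) and Notch4 (-0.48 ± 0.41) were not called, and Heyl was not tested. The median over the 9 members tested was 0.71, against 0.02 over all genes. The groups did not overlap for the 5 called members, where 76.3% of all genes did not overlap and 38.9% did not overlap and were higher.

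Hes1 (2.76, adjusted p = 4.72e-06), Notch1 (0.90, adjusted p = 1.61e-04) and Jag1 (1.02, adjusted p = 1.10e-05) were also called higher after the correction for length and GC content. Notch2 (0.01, adjusted p = 0.902) and Notch3 (-0.23, adjusted p = 0.139) were not, and Jag2 (-1.36, adjusted p = 0.0102) and Notch4 (-1.12, adjusted p = 0.0266) were then called lower in C old. Over all alternatives the adjusted p ranged up to 7.21e-05 for Hes1, 1.61e-04 for Notch1 and 3.19e-05 for Jag1, and from 0.0102 to 0.716 for Jag2 and from 0.0173 to 0.589 for Notch4. Scaling by total counts moved the median of all genes by 0.19 in this comparison, and the same 5 members were called. All 20 haematopoietic markers were called lower and 6 of 8 cycling markers higher in C old. The summed cycling markers were at 488 to 558 CPM in C old and at 226 to 325 CPM in B old. Of the MSC markers 6 were higher and 2 lower, of the osteoblast markers 4 and 2, and of the mural markers 3 and 1. Notch3 itself is 1 of the 3 mural markers that were higher. The part of these lists in the higher Hes1, Notch1 and Jag1 was not tested.

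The 4 A young and 3 C old libraries share no batch, so that age and batch cannot be told apart between them. Here 4 of the 9 members tested were called, 3 higher and 1 lower, and 63.8% of the 15021 genes tested were called, 32.0% higher and 31.9% lower. Hes1 was 5.28-fold higher in C old (log2 fold change 2.40 ± 0.11, adjusted p = 4.82e-09). Notch1 was 1.54-fold higher (0.62 ± 0.11, adjusted p = 2.53e-04) and Jag1 1.29-fold higher (0.37 ± 0.07, adjusted p = 4.43e-04). Notch2 was 1.23-fold lower (-0.30 ± 0.08, adjusted p = 0.00678), and this call was lost with scaling by total counts (-0.01, adjusted p = 0.929), which moved the median of all genes by 0.29. Over all alternatives the adjusted p ranged up to 0.929 for Notch2, 1.42e-07 for Hes1, 0.00537 for Notch1 and 0.0298 for Jag1. Notch3 (-0.10 ± 0.18), Notch4 (0.21 ± 0.37), Jag2 (-0.74 ± 0.40), Dll1 (0.04 ± 0.49) and Hey1 (-0.07 ± 0.24) were not called. The median over the 9 members tested was 0.04, against 0.02 over all genes. The groups did not overlap for the 4 called members, where 64.5% of all genes did not overlap. All 20 haematopoietic markers were called lower in C old here too, and 3 of 8 cycling markers were called higher. Of the MSC markers 5 were higher and 4 lower, and of the mural and of the osteoblast markers 5 were higher and 1 lower. Their part in these differences was not tested. Without A young replicate 1, Notch3 (-0.29, adjusted p = 0.0109) and Jag2 (-0.98, adjusted p = 0.0294) were called lower in C old as well.

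The 4 comparisons share libraries, and their values are therefore set side by side and not counted as repeats of each other. For Hes1 the log2 fold changes were 0.79 with age within batch B, -0.87 for B young against A young, 2.44 for C old against B old and 2.40 for C old against A young. For Notch1 they were -0.37, -0.78, 1.72 and 0.62 in the same order, and for Jag1 -0.07, -0.90, 1.29 and 0.37. For all 3 genes the value with age within batch B was the smallest in size of the 4, but differences between comparisons were not tested.

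**Figure D3:**
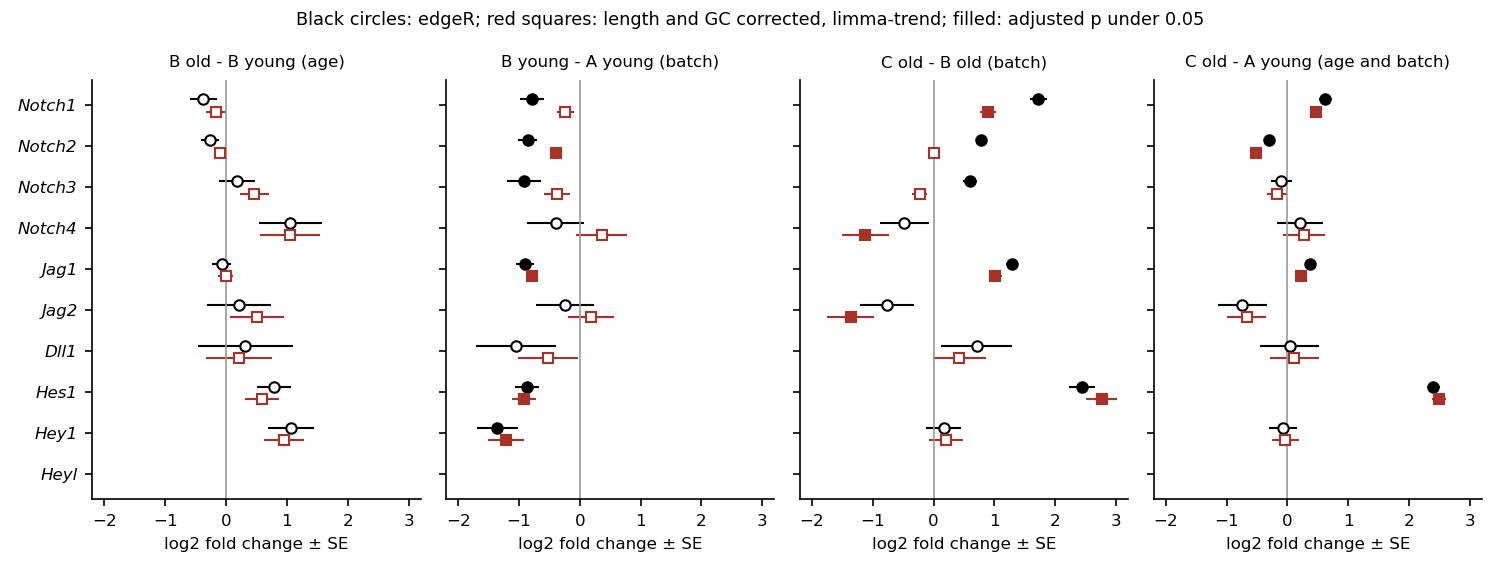
Log2 fold changes ± SE of the members in the 4 comparisons. Black circles are from edgeR and red squares from limma-trend after correction for length and GC content, and filled symbols have an adjusted p under 0.05. Heyl has no point, since it was either not tested or under 3 counts in both groups. No symbol is filled in the age panel, and Hes1 lies at 2.44 and 2.40 in the panels of C old.

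Other genes of the pathway were taken from a list of 60 genes in 7 roles, of which 58 were in the table. Hes2 and Hes5 were not in the table. Dll3, Dll4, Dtx1, Hes3, Hes7 and Nrarp reached at most 6 counts in any library and were not tested in the age comparison. Nrarp, a feedback inhibitor that is a direct target of the receptors, had at most 1 count per library, as had the ligand gene Dll4.

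With age within batch B, 0 of the 52 listed genes tested were called by edgeR, against 2.23% of all genes. An unadjusted p under 0.05 was found for 16 of these 52 genes, a larger share than among all genes (2597 of 16132, 16.1%). Limma-trend called Rbpj lower, and DESeq2 called Rbpj, Ncstn and Pofut1 lower. These 3 genes are named after their values were seen. Rbpj, which encodes the DNA-binding partner of the receptor, was at 438 and 386 CPM in B young and at 301 and 318 CPM in B old (log2 fold change -0.41 ± 0.11, adjusted p = 0.0605 by edgeR). Outside batch B it was at 341 to 343 CPM in A young and at 283 to 316 CPM in C old. Ncstn, a subunit of gamma-secretase, was at 203 and 169 CPM in B young and at 143 and 142 CPM in B old (-0.38 ± 0.11, adjusted p = 0.0772). Pofut1, which adds O-fucose to the receptors, was at 105 and 83.9 CPM in B young and at 71.7 and 70.8 CPM in B old (-0.40 ± 0.12, adjusted p = 0.0865). The median over the 52 genes was -0.19, against 0.00 over all genes. Without B young replicate 2, 16 of the list were called, 15 of them lower in old MSCs, and 2007 of 16665 genes were called in that fit, 1272 of them lower.

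In B young against A young 15 of the 51 listed genes tested were called, 13 lower and 2 higher, and the median over the list was -0.17. The background was 18.1% called, 8.71% lower and 9.39% higher. In the nuclear complex 5 of 12 genes were called, all lower. Among them were the Mastermind co-activator Maml2 (log2 fold change -0.71 ± 0.16, adjusted p = 0.00981) and Spen (-0.69 ± 0.15, adjusted p = 0.00896), a co-repressor of RBPJ. Spen was no longer called after the correction for length and GC content (-0.05, adjusted p = 0.790, the highest over its alternatives), nor was Ccnc (0.25, adjusted p = 0.175, the highest over its alternatives). The ubiquitin ligase gene Neurl1b was at 3.63 to 5.44 CPM in A young and at 0.886 and 1.57 CPM in B young, and was 3.50-fold lower (-1.81 ± 0.33, adjusted p = 0.00452). Dlk1, a non-canonical ligand known to inhibit fat cell formation, was at 50.5 to 130 CPM in A young and at 28.0 and 23.6 CPM in B young, 3.06-fold lower (-1.61 ± 0.30, adjusted p = 0.00463). Ccnc, the cyclin C gene, was 1.62-fold higher (0.70 ± 0.14, adjusted p = 0.00745). Leaving out B young replicate 2 left 2 of the list called, among them Neurl1b, and 511 of 15194 genes in all.

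In C old against B old 38 of the 51 listed genes tested were called, 23 higher and 15 lower, where 64.7% of all genes were called, 32.1% higher and 32.6% lower. All 3 other ligands tested were higher in C old, Dlk1, Dlk2 and Dner, also with scaling by total counts and with the correction for length and GC content. In the nuclear complex 9 of 11 genes were called higher and 0 lower, but with the correction 4 were higher and 5 lower. Maml2 was at 36.0 and 36.6 CPM in B old and at 93.3, 93.4 and 96.1 CPM in C old (log2 fold change 1.37 ± 0.07, adjusted p = 1.17e-08). The histone acetyltransferase gene Ep300 (0.92 ± 0.09, adjusted p = 3.47e-06) and the deltex gene Dtx3 (1.26 ± 0.08, adjusted p = 6.11e-08) were also higher. Of the 10 genes for cleavage 7 were lower and 1 higher, with scaling by total counts 2 were lower and 1 higher, and with the correction 8 were lower. Neurl3, an E3 ligase gene, was at 7.55 and 4.34 CPM in B old and at 0.707, 0.786 and 0.653 CPM in C old, 8.23-fold lower (-3.04 ± 0.31, adjusted p = 4.53e-06). Ccnc (-0.96 ± 0.09, adjusted p = 1.78e-06) and Poglut1 (-0.72 ± 0.07, adjusted p = 2.93e-06), which adds O-glucose to the receptors, were lower as well. The median over the list was 0.18. With scaling by total counts 28 of the list were higher and 9 lower, and with the correction for length and GC content 10 were higher and 24 lower. All genes moved in the same directions, from 5029 higher and 5104 lower to 6472 higher and 3825 lower with total counts and to 4109 higher and 5772 lower with the correction.

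In C old against A young 37 of the 50 listed genes tested were called, 13 higher and 24 lower, with 63.8% called among all genes, and the median over the list was -0.15. The genes for cleavage had the most uniform direction, with 9 of 10 lower and 0 higher. With scaling by total counts 7 were lower and 1 higher, and with the correction for length and GC content all 10 were lower. Of the gamma-secretase subunits, Ncstn was at 222 to 236 CPM in A young and at 137 CPM in each C old library (log2 fold change -0.69 ± 0.06, adjusted p = 1.36e-06). Aph1a (-1.17 ± 0.07, adjusted p = 6.33e-08) and Psenen (-1.22 ± 0.12, adjusted p = 2.82e-06) were lower too. The epsin gene Epn1, which acts in ligand endocytosis, was lower by -0.87 ± 0.09 (adjusted p = 3.71e-06), and Dtx3 was higher by 1.10 ± 0.08 (adjusted p = 2.39e-07). In the role of other Hes and Hey genes 4 were tested, and 2 were called lower and 0 higher. The counts of this role were the same in C old against B old. Among all genes 31.9% were called lower here and 32.6% in C old against B old. With scaling by total counts 23 of the list were higher and 14 lower. The correction for length and GC content gave 9 higher and 27 lower. Among all genes the balance moved the same ways, from 4800 higher and 4785 lower to 7214 higher and 2734 lower with total counts. It moved to 3848 higher and 5539 lower with the correction.

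**Figure D4:**
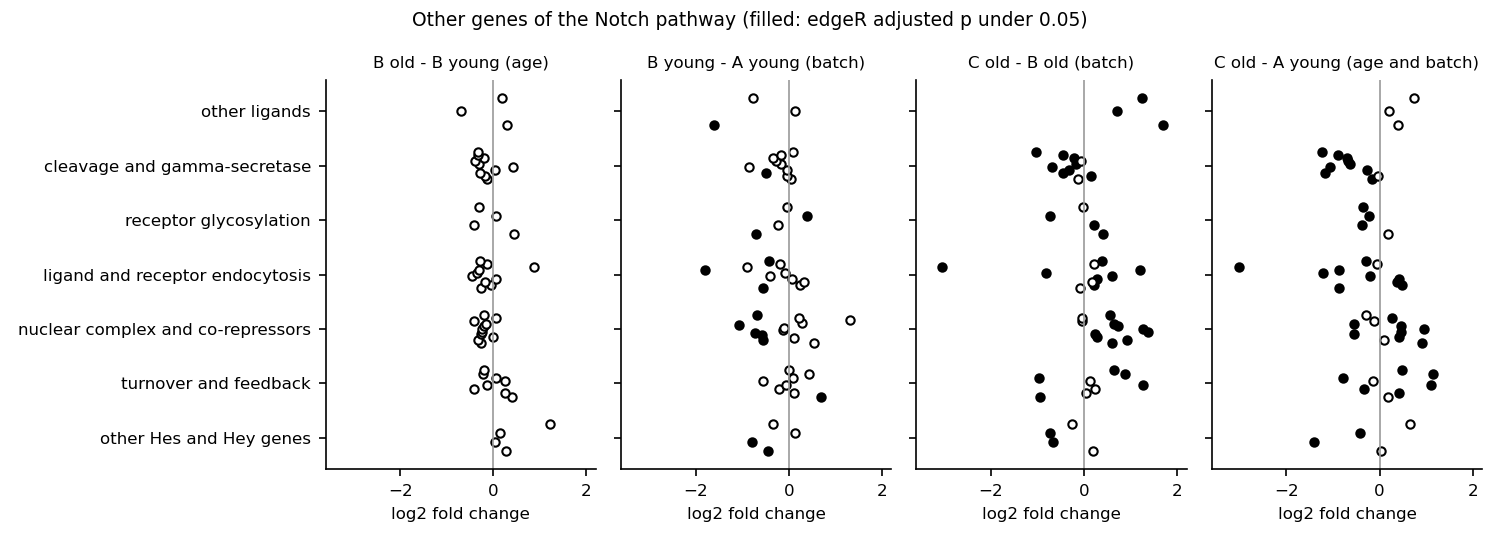
Log2 fold changes of the other Notch pathway genes in the 4 comparisons by role, with 1 point per gene tested and filled points for an edgeR adjusted p under 0.05. Genes under 3 counts in every library of 1 of the groups (Mfng and Rbpjl) are left out. No point is filled in the age panel, and 9 of 10 genes for cleavage and gamma-secretase are filled and below 0 in the last panel.

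For each member the genes with the most similar profile were found by the root mean square (RMS) difference of centred log2 CPM over the 11 libraries, among 13388 named genes. The libraries fall into batches, so that likeness mostly follows the batches, and nothing is read from it about function. Notch2 was followed most closely, by Zmiz1 (RMS difference 0.045 on the log2 scale, where the profile of Notch2 itself varied by 0.47) and Prrc2b (0.071). Jag1 was nearest to Safb2 (0.10, own variation 0.56) and Notch1 to Abca1 (0.12, own variation 0.68) and Fat4 (0.14). Jag1 differed from Notch1 by 0.20, and Jag1 ranked 13 among the genes closest to Notch1. Hes1 was nearest to Polq, a DNA polymerase gene, and Inha, which encodes inhibin alpha, both at 0.33, with an own variation of 1.24. Polq was at 7.47 to 7.92 CPM in C old and at 1.02 to 2.31 CPM elsewhere. The nearest genes were Rhbdl3 and Col18a1 for Notch3 (0.21), Fosl1 and Spsb4 for Notch4 (0.29 and 0.30), and Cdk18 (0.23) and Lyn (0.26) for Jag2. They were Nos1ap (0.28) for Dll1, Prr5l (0.22) and Gab3 (0.23) for Hey1, and Cyp2f2 and Kcp (0.44) for Heyl. With a smaller prior count, 16 of the 20 nearest genes were again among the nearest.

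Some annotated genes overlap the members, and it was not stated whether counting used strand. Overlapping genes in the table were low: 0610009E02Rik within Notch1 was at most at 0.735 CPM, Gm17276 antisense to Notch3 at 0.196 CPM and A930024N18Rik at Dll1 at 0.325 CPM. Reads from Dll1, which was itself below 1 CPM, and from A930024N18Rik cannot be told apart without strand.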

How the data were processed

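Polyadenylated RNA of 11 cultures of bone-derived MSCs was sequenced. The authors deposited 1 table of raw counts per Ensembl gene and library, in whole numbers and without normalisation. Per the labels, the processing used GRCm38 (mm10). The methods of the paper, written for an oxygen comparison, name zUMIs, which aligns reads with STAR and counts them per gene, and whether molecular identifiers were collapsed or strand was used was not stated. No per-sample column was left out.

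Identifiers were matched to GENCODE M21 (28179 of 28222 genes, and 28143 with a transcript length). Counts were tested in R 4.3.3 using edgeR 4.0.16 (two-sided quasi-likelihood F-test), filterByExpr at a minimum count of 5, TMM factors and Benjamini-Hochberg adjustment over all genes tested (threshold 0.05). Age was fitted over all 11 libraries with batch as a term. Batches were compared at the same age (A young and B young, B old and C old), and C old with A young. The SE of a fold change was its size divided by the root of F. Depth was 11969336 to 20315934 counts per library, and limits from 3 counts cover counting error only. Pairs of libraries of a group differed by more than sampling noise in a chi-square test, and all 11 were kept as separate samples.

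The 10 members, the list of 60 pathway genes and the marker lists were chosen with earlier results of these data known. Named from the pathway list were genes called with age and, in each other comparison, the 6 called genes with the smallest p. For each member tested with age the 2 nearest profiles were named (log2 CPM, prior count 2), passing over predicted genes and pseudogenes. Some genes that these rules select are not reported here. Lists are described by counts and medians without a test of the list. Promoters were read from a RefSeq table (GRCm38.p6).

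Alternatives were limma-trend (limma 3.58.1), DESeq2 1.42.0, RLE factors, scaling by library totals, a filter at 10 counts, all genes unfiltered, a loess correction (span 0.3) of each library for length and GC content, the replicate number as a block, all libraries in one fit, no batch term, batch B alone, leaving out each library, lengths from the union of exons, and a prior count of 0.5. The code was checked on simulated counts. Figures were drawn with matplotlib 3.10.9.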

Additional observations from a re-analysis of the deposited data

Results flagged for a closer look

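Jag1 in A young replicate 4 lay apart from the other libraries of its group. It was at 64.7 CPM and the others were at 72.0 to 72.4 CPM, so that the gap to the nearest library was 0.948 of the range of the group. The 4 libraries of A young were screened in this way for 25 genes of the members and the pathway list, of which 1 stood out, and chance marks about 1 in 20 groups. Jag1 was called lower in B young than in A young also without this library.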

How the results depend on the processing

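The directions and calls of Hes1, Notch1 and Jag1 in C old against B old and in C old against A young were the same under all alternatives. With age, 1 member (Hes1) was called without a filter or without a batch term and 0 under the other settings that kept all libraries, and 0 to 1 when a library was left out (Hes1 without B old replicate 2, Notch2 without B young replicate 2). For the pathway list with age the count was 1 with limma-trend, 3 with DESeq2, without a filter or with the correction for length and GC content, 14 without a batch term, and 0 to 16 when a library was left out (16 without B young replicate 2, 1 without A young replicate 1). In B young against A young, 2 to 6 members and 2 to 22 genes of the list were called when a library was left out (for the list 8 without A young replicate 3, 9 without A young replicate 4 and 2 without B young replicate 2), and the correction for length and GC content left 9 of the list. Levels per length from the union of exons moved 5 members to another place in the order. Over all genes, the calls with age went from 360 to 640 with DESeq2, 1094 without a filter, 2641 without a batch term and 123 in batch B alone, and to between 84 and 2007 when a library was left out. Those of B young against A young went from 2686 to between 511 and 4031 when a library was left out and to 4171 in one fit of all libraries. The cause was not tested.

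The sign of the log2 fold change of a member turned in the following cases, none of which was a call in the opposite direction. With age it was 0.33 for Notch1, -0.10 for Notch3, 0.19 for Jag1 and -0.36 for Jag2 without a batch term, and 0.0016 for Jag1 with scaling by total counts. In B young against A young it was 0.36 for Notch4 and 0.18 for Jag2 with the correction for length and GC content. In C old against B old Notch3, called in the edgeR fit, was at -0.23 with that correction. In C old against A young it was 0.19 for Notch3 and 0.22 for Hey1 with scaling by total counts and -0.027 for Dll1 in one fit of all libraries. Leaving out a library gave, with age, -0.67 to 0.025 for Notch1, -0.51 to 0.017 for Notch2, -0.24 to 0.78 for Notch3, -0.30 to 0.21 for Jag1, -0.27 to 1.05 for Jag2 and -0.53 to 0.85 for Dll1. In B young against A young it gave -0.58 to 0.064 for Notch4 and -1.07 to 0.23 for Jag2, in C old against B old -1.03 to 0.39 for Notch4 and -0.22 to 0.68 for Hey1, and in C old against A young -0.29 to 0.028 for Notch3, -0.33 to 0.32 for Dll1 and -0.25 to 0.028 for Hey1. Among these, Notch4 without B old replicate 2 and Notch3 without A young replicate 1 were called lower in C old.

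Libraries of different groups shared replicate numbers in the labels, but the deviations of same-numbered libraries from their group means correlated only between -0.111 and 0.135 over 13 pairs, and by 0.0365 in batch B, so that the numbers were not read as pairs. With the replicate number as a block, 3 members (Hes1, Jag1 and Notch2) and 4 genes of the list were called in B young against A young, and 729 of all genes. Jag2 was then at 0.16 in that comparison and Hey1 at 0.011 in C old against A young, and the counts of members and of the list in the other comparisons stayed within 1.5 times. Depth limits Notch4, Jag2, Dll1 and Heyl, which had at most 40, 26, 12 and 6 counts per library.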
